A study of Mus musculus with 3 samples.

Results

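The caveolin and cavin genes were followed in 3 RNA-seq libraries of c2c12, an immortalized mouse cell line of myoblasts, the precursors of muscle fibres. The members were the lines of the count files named Cav1, Cav2 and Cav3 and the 4 cavin genes under the symbols the files use, which are Ptrf (now Cavin1), Sdpr (Cavin2), Prkcdbp (Cavin3) and Murc (Cavin4). All 7 were found among 23238 symbols, and all 7 passed the limit of 1 CPM (counts scaled to a common library total) in at least 1 library, which 13169 genes passed. After growth in serum-rich medium the cells were kept for 2 days in myogenic induction medium with 2% horse serum on tissue culture plates (TCP), on hydrogels of 15% methacrylated gelatin (GelMA), or on the same gelatin with 1% poly(sodium 4-styrenesulfonate), a sulfonated polymer that mimics heparin (GelMA-PSS). The line, the medium and the time in culture were shared by the 3 groups, no gene was altered, and 1 library was sequenced per substrate. No difference below therefore has a replicate check, no p-value was computed, and the confidence intervals cover counting error only.

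Caveolae are small flask-shaped pits of the plasma membrane. Caveolins are the membrane proteins that shape them together with cholesterol, and cavins are cytosolic proteins that coat the pits from inside. Most cell types build caveolae from caveolin-1 and caveolin-2, whereas striated muscle uses caveolin-3, which appears as myoblasts differentiate and is mutated in inherited muscle diseases. Cavin-1 is needed for caveolae in all tissues, cavin-2 and cavin-3 join it in many non-muscle cells, and cavin-4 is found mainly in striated muscle. The question put to the data was how the genes of the muscle forms and of the widespread forms stood on each substrate.

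Summed over genes, the TCP library had 119799095 counts, the GelMA library 87071144 and the GelMA-PSS library 192171443. Counts were scaled to CPM with TMM factors, which set the libraries to a common level over most genes, and log2 ratios were taken on log2(CPM + 1). Past 2-fold, 233 genes were higher and 307 lower on GelMA-PSS than on GelMA (120 and 506 with total counts alone), and 490 were higher and 412 lower than on TCP (338 and 576 with total counts alone). The log2 ratio of GelMA-PSS against GelMA went down with transcript length across genes, from a median of 0.58 in the shortest of 10 length classes with about equal numbers of genes to -0.62 in the longest. The ratios are therefore also given as corrected where the correction changes their size or sign, which means after subtraction of smooth fits on transcript length and GC content over all genes. The markers of differentiating myoblasts were present in every library. Myog, the gene of myogenin, had a CPM of 1099.9 on TCP, 894.8 on GelMA and 1036.6 on GelMA-PSS. The summed CPM of the 9 muscle markers found was 23121 on TCP, 17430 on GelMA and 14164 on GelMA-PSS, and without the myosin gene Myh3 it was 12939, 11075 and 11127.

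In the mouse genome build GRCm38, Cav2 and Cav1 lie one after the other on the plus strand of chromosome 6, from 17281185 to 17289115 and from 17306335 to 17341452, with 17219 bases between them. Cav3 lies far from them on the same chromosome, from 112459505 to 112472872. Ptrf is on chromosome 11 from 100956733 to 100970887, Sdpr on chromosome 1 from 51289126 to 51302960, Prkcdbp on chromosome 7 from 105480083 to 105482300, and Murc on chromosome 4 from 48663514 to 48673502. Cav1 and Cav2 have 3 exons in the chosen transcript, and the other genes have 2. The transcript of Cav3 was the shortest of the family at 1157 bases, followed by Prkcdbp at 1662, Murc at 2054, Cav1 at 2522, Cav2 at 2733, Sdpr at 3055 and Ptrf at 3491. Genes on the other strand overlap Cav1, Cav2, Sdpr and Prkcdbp in the annotation. The methods describe the reads as strand-specific, but whether the authors' counting used strand is not given in the sources used here, so that reads from either gene of such a pair may not be told apart. The antisense gene of Sdpr, 9330175M20Rik, was listed with 52, 34 and 27 counts on TCP, GelMA and GelMA-PSS, against 7953, 5696 and 18455 for Sdpr.

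The 250 bases before the transcription start are shown for 4 genes. Cav3 and Murc were highest on TCP and lowest on GelMA-PSS, while Cav1 and Cav2 had the opposite order. Ptrf and Prkcdbp also had that opposite order but are not shown, and no sequence was available for Prkcdbp. The sequences were taken from RefSeq on GRCm38.p6, where 6 of the 7 genes had a window, and all 4 lie on the plus strand: chr6:112459255-112459504 for Cav3, chr4:48663264-48663513 for Murc, chr6:17306085-17306334 for the first of 2 starts of Cav1 and chr6:17280935-17281184 for Cav2. Capitals mark each E-box, the letters CANNTG, which basic helix-loop-helix factors such as MyoD and myogenin bind.
Cav3: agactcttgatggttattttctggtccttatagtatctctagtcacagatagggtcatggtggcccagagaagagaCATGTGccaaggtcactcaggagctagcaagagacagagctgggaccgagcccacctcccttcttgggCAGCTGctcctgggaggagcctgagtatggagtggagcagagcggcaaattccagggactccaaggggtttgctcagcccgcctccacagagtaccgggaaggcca
Murc: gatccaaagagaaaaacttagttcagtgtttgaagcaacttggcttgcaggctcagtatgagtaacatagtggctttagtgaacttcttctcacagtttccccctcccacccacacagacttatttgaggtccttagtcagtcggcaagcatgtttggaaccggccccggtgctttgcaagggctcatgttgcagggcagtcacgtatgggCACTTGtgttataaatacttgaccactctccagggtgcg
Cav1: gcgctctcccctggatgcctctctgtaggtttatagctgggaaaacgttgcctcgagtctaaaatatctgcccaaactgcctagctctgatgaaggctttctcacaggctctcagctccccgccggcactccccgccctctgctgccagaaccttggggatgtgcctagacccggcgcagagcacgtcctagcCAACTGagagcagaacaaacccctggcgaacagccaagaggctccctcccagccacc
Cav2: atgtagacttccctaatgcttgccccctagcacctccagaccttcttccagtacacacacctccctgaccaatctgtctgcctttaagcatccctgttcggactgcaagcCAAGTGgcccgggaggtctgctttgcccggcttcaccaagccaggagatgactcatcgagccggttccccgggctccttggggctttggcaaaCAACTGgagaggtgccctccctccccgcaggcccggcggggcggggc
Cav3 held 2 E-boxes, and one of them, CAGCTG, began 106 bases before the start. Murc held 1, which began 39 bases before the start and was followed by the letters TATAAA from 30 bases before it. Cav1 held 1 E-box, with TATAAA on the other strand from 221 bases before the start, and Cav2 held 2. CAGCTG is one of the forms of CANNTG, so that its matches are counted under both. A search of both strands over 32851 RefSeq windows of this length found CANNTG in 66.2%, CAGCTG in 13.0% and TATAAA in 12.4%. Most windows thus hold an E-box, and all 4 genes shown do. The windows of Sdpr and Ptrf held no CANNTG in these letters, and the letters CATTCC, the MCAT element that TEAD factors bind, were found in the windows of Ptrf alone among the 6 genes. CATTCC was in 12.6% of the windows searched.

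Cav3, which encodes the caveolin of muscle, was lower on both hydrogels than on TCP and was lowest on GelMA-PSS. Its counts were 8589 on TCP, 4293 on GelMA and 7474 on GelMA-PSS, which gave a CPM of 70.5 (95% Wilson interval from 69.1 to 72.0), 47.2 (from 45.8 to 48.7) and 41.3 (from 40.3 to 42.2). The 3 intervals do not overlap. The CPM was 1.49-fold lower on GelMA than on TCP, and GelMA-PSS was a further 1.15-fold below GelMA. In bulk RNA, fewer cells that express a gene and less RNA of it per cell cannot be told apart. The log2 ratios of Cav3 were -0.57 for GelMA against TCP, -0.19 for GelMA-PSS against GelMA and -0.76 for GelMA-PSS against TCP. For a transcript this short the fit on length ran the other way, at a log2 ratio of 0.47 for the comparison with GelMA and of 0.39 for that with TCP. The corrected log2 ratios of GelMA-PSS were thus larger in size, at -0.58 against GelMA and -1.08 against TCP, and the second of these passed 2-fold. With -0.51 for GelMA against TCP after the correction, the step from TCP to GelMA was the larger one only in the uncorrected values.

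Cav1 encodes the main caveolin of non-muscle cells. Its CPM went up in order from 39.7 (from 38.6 to 40.8) on TCP to 55.6 (from 54.0 to 57.1) on GelMA and 73.7 (from 72.5 to 75.0) on GelMA-PSS, from 4832, 5049 and 13350 counts. GelMA-PSS was the highest library, 1.33-fold above GelMA (from 1.28 to 1.37) and 1.86-fold above TCP (from 1.80 to 1.92). Cav2 encodes caveolin-2, which reaches the membrane in complexes with caveolin-1, and it was the scarcest of the family. With 551, 705 and 1950 counts, its CPM was 4.53 (from 4.16 to 4.92), 7.76 (from 7.21 to 8.35) and 10.8 (from 10.3 to 11.3) in the same order of libraries. Cav2 thus had the order of Cav1, and on GelMA-PSS it was 2.38-fold above TCP (from 2.16 to 2.62), the largest fold of CPM among the 7 genes. The corrected log2 ratio of GelMA-PSS against GelMA was 0.17 for both genes, below the uncorrected 0.40 for Cav1 and 0.43 for Cav2. Against TCP the corrected values were 0.69 for Cav1 and 0.87 for Cav2, and GelMA itself was above TCP by 0.48 and 0.66 before the correction.

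**Figure D1:**
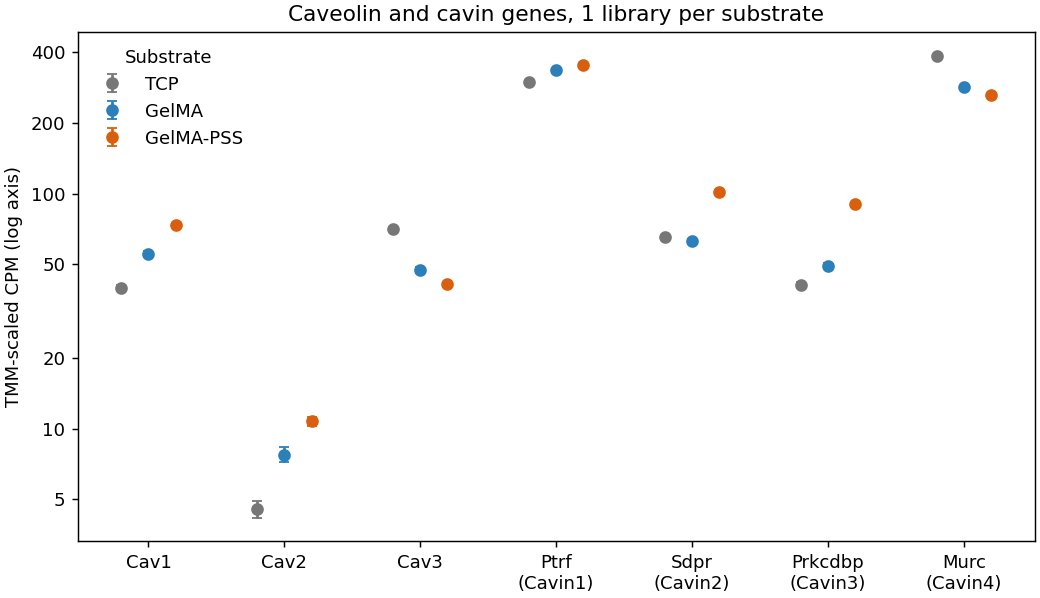
CPM scaled with TMM factors, on a log axis, of the 7 genes on each substrate, with 1 point per library and bars for the 95% Wilson counting interval, which is mostly smaller than the point. Cav1, Cav2, Ptrf and Prkcdbp go up from TCP through GelMA to GelMA-PSS, Cav3 and Murc go down, and Sdpr stands apart on GelMA-PSS only, at 101.9 against 65.3 and 62.7.

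Murc, the gene of the muscle cavin, cavin-4, had the same order of libraries as Cav3. It had a CPM of 384.5 (from 381.1 to 388.0) on TCP, 283.9 (from 280.5 to 287.4) on GelMA and 262.2 (from 259.8 to 264.6) on GelMA-PSS. GelMA was 1.35-fold and GelMA-PSS 1.47-fold below TCP, while GelMA-PSS was 1.08-fold below GelMA. The log2 ratio of GelMA-PSS against TCP was -0.55, or -0.73 corrected. For GelMA against TCP it was -0.44, or -0.39 corrected, and for GelMA-PSS against GelMA -0.11, or -0.36 corrected, so that both steps were of about the same size after the correction. The ratio of Murc to Cav3 per transcript length was 3.07 on TCP, 3.39 on GelMA and 3.58 on GelMA-PSS, a smaller change than in the ratios of Cav3 to Cav1 and of Murc to Ptrf given below.

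Ptrf encodes cavin-1, the cavin without which caveolae do not form. Before the correction it differed least of the family between GelMA-PSS and each control, with a CPM of 298.4 (from 295.3 to 301.5) on TCP, 336.9 (from 333.2 to 340.7) on GelMA and 353.3 (from 350.6 to 356.1) on GelMA-PSS. Its log2 ratio on GelMA-PSS was 0.07 with GelMA as the control and 0.24 with TCP, or 0.20 and 0.35 corrected. With total counts in place of TMM factors the first of these was -0.078, so that its direction against GelMA depends on the scaling. Sdpr, the gene of cavin-2, was the gene for which the controls were most alike, at 65.3 (from 63.9 to 66.8) on TCP and 62.7 (from 61.1 to 64.3) on GelMA. GelMA-PSS lay above both at 101.9 (from 100.4 to 103.4), which is 1.63-fold the GelMA level and 1.56-fold the TCP level. Prkcdbp encodes cavin-3, named for its binding to protein kinase C delta. It had the largest log2 ratio of the family on GelMA-PSS, with a CPM of 40.9 (from 39.8 to 42.0) on TCP, 49.0 (from 47.6 to 50.5) on GelMA and 90.7 (from 89.3 to 92.1) on GelMA-PSS. GelMA-PSS was 1.85-fold above GelMA (from 1.79 to 1.91) and 2.22-fold above TCP (from 2.15 to 2.29). For Prkcdbp the difference between the hydrogels was the larger step in log2 ratio, at 0.88 beside 0.26 for GelMA against TCP, and 0.64 beside 0.31 after the correction. For Cav1 and Cav2 the step from TCP to GelMA was the larger one, at 0.48 and 0.66 before and 0.52 and 0.71 after the correction. The corrected log2 ratios against GelMA were 0.57 for Sdpr and 0.64 for Prkcdbp, and against TCP 0.54 and 0.96.

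Against GelMA, 0 of the 7 genes passed 2-fold on GelMA-PSS, where 4.10% of all genes tested did. Against TCP, 2 passed, Cav2 and Prkcdbp, both higher, with log2 ratios of 1.09 and 1.13, where 3.72% of all genes were higher, 3.13% lower and 6.85% past 2-fold in either direction. None of the 7 passed against both controls, as 1.37% of genes did upward and 1.16% downward. After the correction 0 of the 7 passed against GelMA, as 1.87% of genes did, and 1 passed against TCP, which was Cav3 in place of Cav2 and Prkcdbp, where 4.43% of genes passed and 2.40% were lower. Between GelMA and TCP, 0 of the 7 passed, against 1.00% of genes. At 1.5-fold, 2 members passed against GelMA (21.8% of genes), 5 against TCP (24.7%) and 1 between GelMA and TCP (5.62%).

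The median log2 ratio of the family was 0.40 against GelMA and 0.63 against TCP, beside medians of 0.03 and 0.04 over all 13169 genes. This median mixes genes of opposite sign. On GelMA-PSS, 5 members were higher than on both controls and 2 were lower than on both, against 45.3% and 39.3% of all genes, or 40.8% and 40.7% after the correction, which left the 5 and the 2 as they were. Both comparisons share the GelMA-PSS library. Of the 7 members, 4 had the order TCP below GelMA below GelMA-PSS, which 22.5% of all genes had, and 2 had the reverse order, which 21.2% had. After the correction the same counts were 4 and 2, against 25.9% and 26.5%. These counts describe 7 genes in 3 libraries and were not tested.

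**Figure D2:**
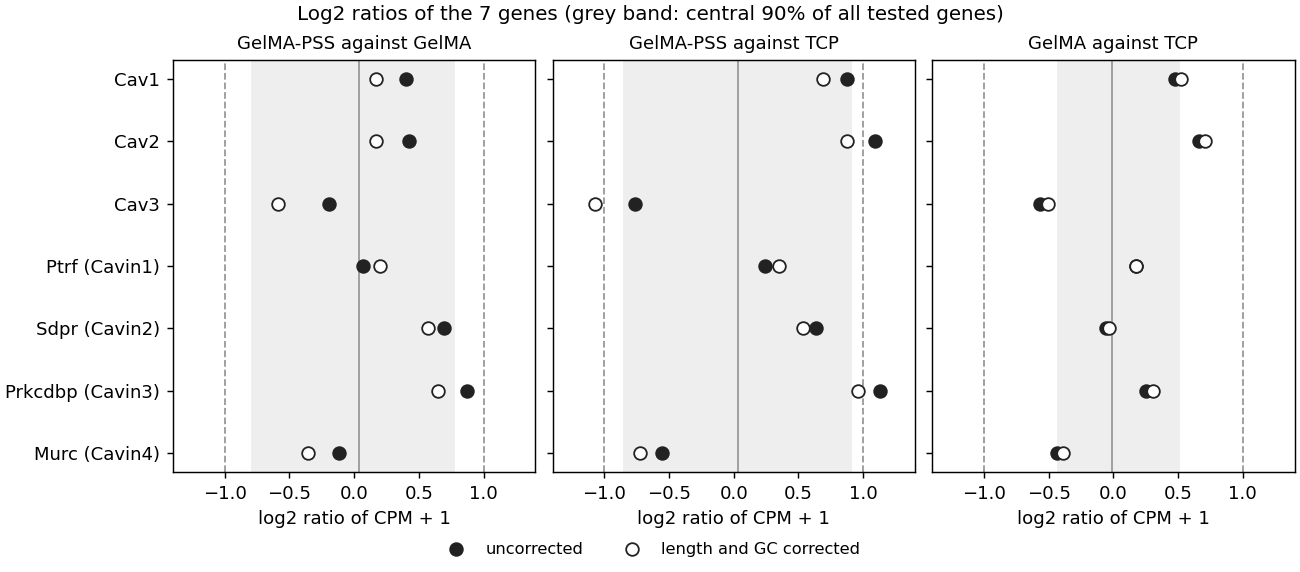
Log2 ratio of CPM + 1 for each gene in the 3 comparisons, with filled circles for the uncorrected ratio and open circles for the corrected ratio. The grey band spans the middle 90% of the uncorrected ratios of all genes tested, the grey line is their median and the dashed lines mark 2-fold. Prkcdbp is outside the band in both GelMA-PSS panels, and the correction moves Cav3 to -1.08 against TCP.

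The place of each member among genes of like length bears on these ratios. The length class that holds Cav3, with transcripts of 1125 to 1605 bases, had a median log2 ratio of 0.40 for GelMA-PSS against GelMA, and Cav3 at -0.19 was below it. The class of Prkcdbp had a median of 0.27, and Prkcdbp at 0.88 was above it. Murc was at -0.11 where the median of its class was 0.17, and Cav1 and Cav2 were at 0.40 and 0.43 where theirs was 0.09. Sdpr and Ptrf, in classes with medians of 0.01 and -0.07, were at 0.69 and 0.07. All 5 members above the controls were above the median of their length class, and both members below the controls were below it. For Cav3, Murc and Ptrf the side was fixed by the sign of the ratio, because the median of the class had the other sign. By definition, as many genes of a class lie above its median as below it, so this tally adds no separate evidence. What gave rise to the trend with length was not tested.

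**Figure D3:**
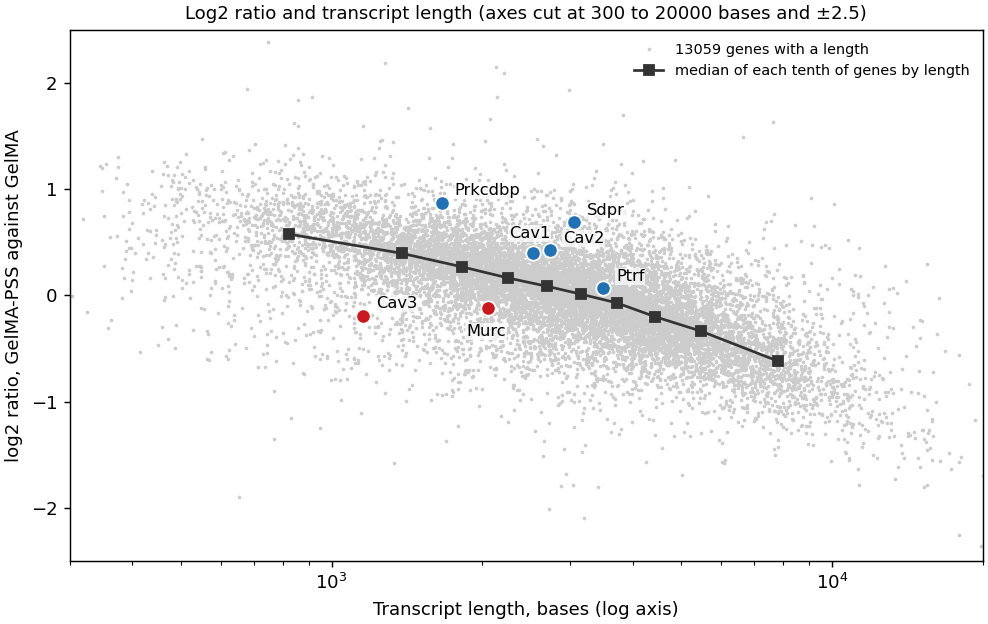
Log2 ratio of GelMA-PSS against GelMA plotted against transcript length on a log axis, with 1 grey dot per gene, squares for the median of each length class, red circles for Cav3 and Murc and blue circles for the other members. Cav3 and Murc lie below the line of medians and the other 5 members above it.

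Levels can be compared between genes only per transcript length, as TPM, the counts per base of transcript scaled to a common total within a library. On TCP, Murc had the highest TPM at 375.4, followed by Ptrf at 171.4, Cav3 at 122.2, Prkcdbp at 49.3, Sdpr at 42.9, Cav1 at 31.6 and Cav2 at 3.32. The 3 most abundant genes were the same on GelMA, at 287.3 for Murc, 200.6 for Ptrf and 84.9 for Cav3, with Prkcdbp at 61.3, Cav1 at 45.8, Sdpr at 42.6 and Cav2 at 5.90. On GelMA-PSS, Murc and Ptrf came first at 191.7 and 152.0, Prkcdbp with 82.0 stood above Cav3 with 53.6, and Sdpr, Cav1 and Cav2 had 50.1, 43.9 and 5.92. Prkcdbp was thus ahead of Cav3 on GelMA-PSS and behind it on both controls. Cav1 and Sdpr on GelMA changed places when the length of all exons of the gene was used, and no other place in the order changed with it. TPM shares out a fixed total within each library, and the TPM of a single gene is not used here to compare libraries. Ptrf and Cav1 were lower on GelMA-PSS than on GelMA in TPM, but higher in CPM. The spread of these levels between cultures is unknown, so that neighbours such as Cav3 and Sdpr on GelMA-PSS, or Cav1 and Sdpr on GelMA, may not differ.

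Among the caveolins, the share of Cav3 was smaller on the hydrogels. Cav3 made up 77.8% of the summed caveolin TPM on TCP, 62.1% on GelMA and 51.8% on GelMA-PSS, while Cav1 made up 20.1%, 33.5% and 42.5%. In raw counts the share of Cav3 was 61.5% (from 60.7 to 62.3), 42.7% (from 41.8 to 43.7) and 32.8% (from 32.2 to 33.4), and with the length of all exons it was 82.6%, 68.9% and 59.2%, in the same order of libraries throughout. The ratio of Cav3 to Cav1 per length was 3.87 (from 3.74 to 4.01) on TCP, 1.85 (from 1.78 to 1.93) on GelMA and 1.22 (from 1.19 to 1.26) on GelMA-PSS. On GelMA-PSS this ratio was 0.315 of that on TCP and 0.658 of that on GelMA. The scale of the library does not enter such a ratio, and the fit on length for GelMA-PSS against GelMA was higher at the length of Cav3 (0.47) than at that of Cav1 (0.11). The ratio of Cav1 to Cav2 moved less, at 9.50, 7.76 and 7.42.

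Among the cavins, the muscle form also had its smallest share on GelMA-PSS. Murc made up 58.8% of the summed cavin TPM on TCP, 48.5% on GelMA and 40.3% on GelMA-PSS. The share of Ptrf was 26.8%, 33.9% and 31.9%, that of Prkcdbp 7.72%, 10.4% and 17.2%, and that of Sdpr 6.71%, 7.21% and 10.5%. Between TCP and GelMA the share of Ptrf grew most, and between GelMA and GelMA-PSS that of Prkcdbp. The trend with transcript length was not removed from these shares. For GelMA-PSS against GelMA the fit on length was 0.31 for Prkcdbp, 0.21 for Murc, 0.02 for Sdpr and -0.04 for Ptrf. The ratio of Murc to Ptrf per length was 2.19 (from 2.16 to 2.22), 1.43 (from 1.41 to 1.46) and 1.26 (from 1.25 to 1.28) in that order of substrates.

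**Figure D4:**
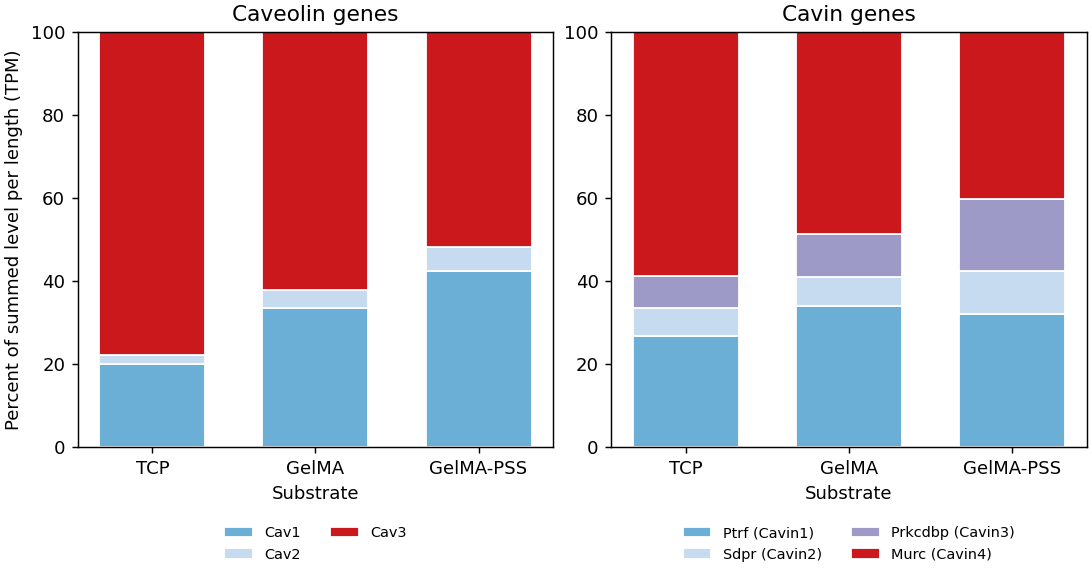
Share of each gene in the summed TPM of the caveolin genes (left) and of the cavin genes (right) on each substrate, as stacked bars from 0 to 100%. The red share, Cav3 on the left and Murc on the right, is largest on TCP (77.8% and 58.8%) and smallest on GelMA-PSS (51.8% and 40.3%).

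Other caveola-rich cell types were looked for through their markers. The 5 adipocyte markers summed to a CPM of 0.0985, 0.0770 and 0.0662 on TCP, GelMA and GelMA-PSS, with Lep at 0 counts in all 3 libraries, and the 5 endothelial markers summed to 2.29, 3.46 and 2.54, most of it Plvap. Both sums were near 0 and neither was highest on GelMA-PSS, but single genes differed. Fabp4 of the adipocyte list and Cdh5 and Kdr of the endothelial list were highest on GelMA-PSS, at a CPM of 0.0442, 0.132 and 0.0773. The other genes of these lists were not. The macrophage markers summed to 1.75, 1.86 and 1.62. The smooth muscle list, whose Acta2 and Tagln are also made by myoblasts, summed to 3588.3, 2821.9 and 3075.9, while Myh11, its defining marker, had 22, 29 and 17 counts. Of the 9 muscle markers, 3 were higher on GelMA-PSS than on both controls and 4 were lower than on both. Over all genes these shares were 45.3% and 39.3%. Myf5, a factor of undifferentiated myoblasts, had a CPM of 13.9 on TCP, 19.5 on GelMA and 36.5 on GelMA-PSS, in the order of Cav1. Tmem8c, the gene of the fusion protein myomaker, was at 1029.8, 773.4 and 669.8. The embryonic myosin gene Myh3 was at 10182, 6355 and 3036.5. Tmem8c and Myh3 had the order of Cav3, as had the markers Ckm and Acta1, and Myod1 had that of Cav1. The markers Myog, Des and Cdh15 had neither order, and all were lowest on GelMA. The marker values are not corrected for the trend with transcript length. The part of the stage of differentiation in the caveolin and cavin values was not tested.

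Genes whose products work with caveolae were taken from 4 lists. Of 13 genes for membrane remodelling at caveolae, 0 were higher and 1, Pacsin1, was lower past 2-fold on GelMA-PSS, against each control. Of all genes, 2.33% were lower and 1.77% higher than on GelMA by this measure, and 3.13% were lower and 3.72% higher than on TCP. Pacsin1, the neuronal form of the pacsins that bend membranes, was scarce, with a CPM of 8.24 on TCP, 4.17 on GelMA and 0.905 on GelMA-PSS. Pacsin3, the muscle form, had 316.1, 208.7 and 205.5, and thus differed between TCP and the hydrogels but hardly between the hydrogels. Before the correction, 7 of the 13 genes were lower on GelMA-PSS than on both controls, where 39.3% of all genes were. Higher than both was 1 of the 13, where 45.3% of all genes were. This was Ehd2, an ATPase at the neck of caveolae, at 162.3, 179.9 and 214.2. Its log2 ratios on GelMA-PSS were 0.25 with GelMA and 0.40 with TCP as the control, or 0.60 and 0.66 corrected. After the correction Flna, Ehd1 and Ehd3, named for their values, were also above both controls, where 40.8% of all genes were. For Flna these log2 ratios were -0.55 and 0.16, or 0.16 and 0.67 corrected. The same log2 ratios were -0.25 and -0.52 for Ehd4, or -0.16 and -0.45 corrected. For Dnm3, a dynamin gene with a transcript of 7523 bases, they were -0.31 and -0.63, and the correction turned the first to 0.18 and brought the second to -0.28. The median of the list was -0.19 against GelMA and -0.05 against TCP, or -0.04 and -0.16 corrected.

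Of 14 tested genes for proteins known to bind caveolin-3 or to sit with it at the sarcolemma, 13 were lower on GelMA-PSS than on both controls, where 39.3% of all genes were, and Src alone was higher than both. After the correction Ptk2, the focal adhesion kinase gene, named for its value, was also higher than both. Its log2 ratios went from -0.14 to 0.05 against GelMA and from -0.06 to 0.09 against TCP. The other genes kept their side, where 40.7% of all genes were lower than both. Before the correction, 1 of the 14 was lower past 2-fold than on GelMA, Igf1r, beside 2.33% of all genes. Against TCP 4 were, Dag1, Dysf, Trim72 and Capn3, beside 3.13% of all genes. After the correction 0 of the 14 passed against GelMA, where 1.87% of all genes did. Against TCP 2 were lower, Trim72 and Capn3, where 2.40% of all genes were lower. The 4 genes lower than on TCP encode dystroglycan, the membrane repair proteins dysferlin and Trim72, and calpain-3, and Dag1, Trim72 and Capn3 are named here because of their values. Dysf had a CPM of 214.9 on TCP, 171.2 on GelMA and 89.1 on GelMA-PSS. Its transcript of 6641 bases is long, and its log2 ratio against GelMA was -0.94 before and -0.38 after the correction. For Igf1r, a growth factor receptor gene with a transcript of 11409 bases, these values were -1.06 and -0.16, and for Tgfbr1, a receptor gene of TGF-beta, -0.79 and -0.56. The median of the list was -0.58 against GelMA and -0.74 against TCP, or -0.24 and -0.50 corrected, and the median transcript length of the list was 4239 bases.

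T-tubules, the inward folds of the muscle membrane, are built with the help of caveolin-3. Of 12 genes for their building, 9 were lower on GelMA-PSS than on both controls and 0 were higher, where 39.3% and 45.3% of all genes were. After the correction Stac3 was also lower than both and Ehd1 was higher than both, both named for their values. The shares of all genes were then 40.7% lower and 40.8% higher. Ryr1 encodes the calcium release channel and Cacna1s the voltage sensor opposite to it. Before the correction both were lower past 2-fold than on each control, as 1.16% of all genes were. Ryr1 had a CPM of 1023.0 on TCP, 868.1 on GelMA and 248.3 on GelMA-PSS, but its transcript of 15300 bases is the longest of the list, and its log2 ratio against GelMA of -1.80 became -0.55 with the correction. For Cacna1s the same values were -1.04 and -0.55, so that 0 of the 12 passed against GelMA after the correction, where 1.87% of all genes did. Bin1, which bends the T-tubule membrane, had 2230.0 on TCP, 1510.1 on GelMA and 1612.9 on GelMA-PSS, so that it was lower on both hydrogels and not lowest on GelMA-PSS. Past 2-fold against TCP, 5 were lower (3.13% of all genes), which besides Ryr1 and Cacna1s were Dysf, Trim72 and, named for its value, the junctophilin gene Jph1, and 3 of the 12, Ryr1, Cacna1s and Trim72, passed after the correction (2.40% of all genes). Among 11 genes for lipid raft proteins and cholesterol supply, 0 passed 2-fold in any of the 3 comparisons. Of all genes, 4.10% passed for GelMA-PSS against GelMA, 6.85% for GelMA-PSS against TCP and 1.00% for GelMA against TCP. The median of the list was -0.07 against GelMA and -0.09 against TCP, or 0.04 and 0.09 corrected. Flot1 (flotillin-1) and Npc2, a carrier of cholesterol in lysosomes, were higher, at log2 ratios of 0.59 and 0.60 when set against GelMA, or 0.43 and 0.62 corrected.

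**Figure D5:**
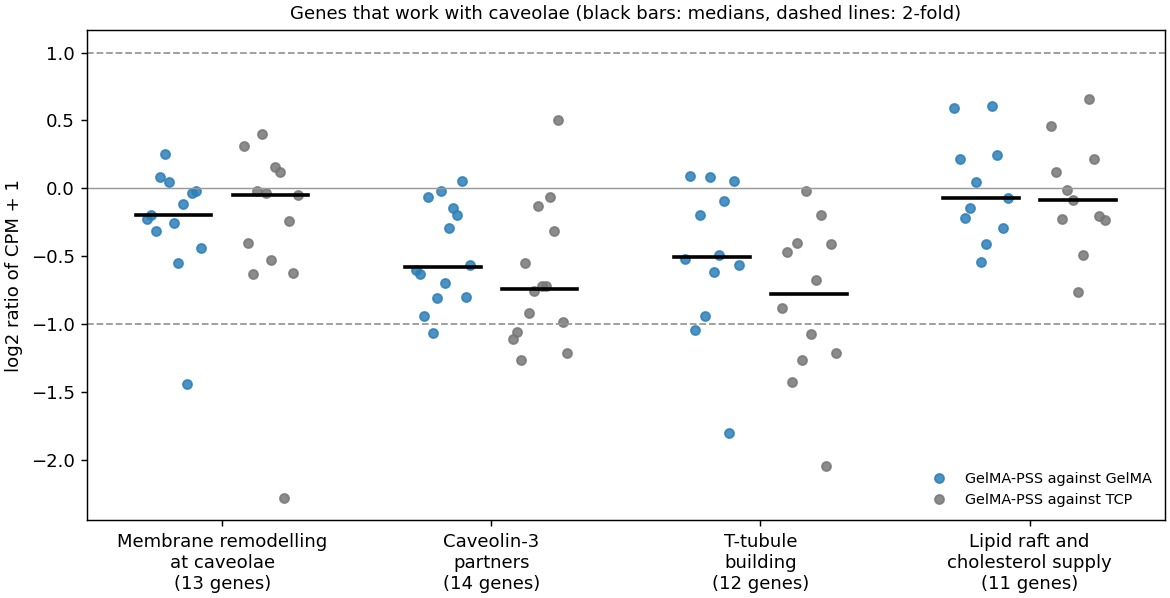
Log2 ratio of CPM + 1 of GelMA-PSS against GelMA (blue) and against TCP (grey) for the tested genes of the 4 lists, with 1 point per gene, black bars for the medians and dashed lines at 2-fold. The caveolin-3 partners and the T-tubule genes have medians of -0.58 and -0.51 against GelMA, or -0.24 and -0.30 corrected, and the other lists are closer to 0. Some genes are in more than 1 list.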

How the data were processed

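RNA was harvested from c2c12 cells on TCP, GelMA and GelMA-PSS, and 1 library per substrate was sequenced as paired-end reads. The sample labels name a SMARTER kit and the methods a TruSeq kit. The values the authors deposited are raw counts, 1 per gene symbol, not normalized. TopHat, edgeR, mm10 and hg19 appear in the submitters' processing notes with no role or version, and the counting tool and annotation are not given in the sources used here.

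Lines that share a symbol (35 of 23238 symbols) were summed. CPM used TMM factors of 1.02, 1.04 and 0.943 for TCP, GelMA and GelMA-PSS from edgeR 4.0.16, with a pseudocount of 1 CPM on the log2 scale. The methods used FPKM, which are not used here. Wilson and exact (Clopper-Pearson) 95% intervals came from scipy 1.17.1. Counts of 2 were more frequent than counts of 1 in each library (543 and 426 genes on TCP), so both reads of some pairs may have been counted and the intervals may be too narrow. In GelMA-PSS, 3 counts correspond to a CPM of 0.0166.

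Lengths and positions came from GENCODE vM21 (GRCm38, the build named mm10), with the basic transcript of longest coding sequence per gene. Of the symbols, 22197 matched as written and 668 by an older name. RefSeq windows on chromosome 18 were not used here. The correction subtracted successive lowess fits (span 0.3, statsmodels 0.14.6) on log10 length and GC content over 13059 genes. The scripts were checked on simulated data.

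The members, the partner and marker lists and the rules were chosen with earlier results of these data known. Named genes were all members, the 3 genes of each partner list farthest from the mean of the controls, those past 2-fold against both, Dysf, Bin1, Ehd2 and Pacsin3, and the 3 genes most like each member. A single gene that this rule names is not reported here. Alternatives covered scaling, pseudocount, filter, threshold, length correction, repeated symbols and the length measure.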

Additional observations from a re-analysis of the deposited data

How the results depend on the processing

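Of the 21 log2 ratios of members, each computed under 6 alternatives, 125 of 126 values kept their sign. The exception was Ptrf on GelMA-PSS against GelMA, which was -0.078 with total counts alone. That scaling moved the median of all genes by -0.13 for GelMA-PSS against GelMA, and it gave family medians of 0.26 for GelMA-PSS and GelMA, 0.53 for GelMA-PSS and TCP and 0.21 for both controls. With the length and GC correction, the medians of GelMA-PSS were 0.17 against GelMA and 0.54 against TCP, and 244 and 578 genes of the whole table passed 2-fold in place of 540 and 902. With a pseudocount of 5 CPM the median against GelMA was 0.31. Against TCP, the number of members past 2-fold was 1 with total counts alone, with a pseudocount of 5 CPM and with the correction. With a threshold of 1.5-fold it was 5, and it was 2 against GelMA and 1 between the controls. With counts divided by 2, as if both reads of each pair had been counted, 20 of the 21 counting intervals of the ratios left out 1, and the exception was Sdpr for GelMA against TCP. No replicate could be left out and no count model could be fitted with 1 library per substrate. No paired analysis was possible because each substrate has 1 library. Depth limits Cav2 most, with 551 counts on TCP.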

Other observations

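The neighbours of the Cav2 and Cav1 pair on chromosome 6 of GRCm38 were read as well, after their values had been seen. Tes, from 17065149 to 17105828, encodes the focal adhesion protein testin and is the tested gene just before Cav2. It had a CPM of 46.7 on TCP, 77.9 on GelMA and 110.4 on GelMA-PSS, which is the order of Cav2 and Cav1, and its corrected log2 ratio of GelMA-PSS against TCP was 1.09, beside 0.87 for Cav2 and 0.69 for Cav1. Met, from 17463800 to 17573980, which encodes the receptor of hepatocyte growth factor and follows Cav1, was highest on GelMA, with 30.4, 45.2 and 37.0, and its log2 ratio of GelMA-PSS against GelMA was -0.28 before and 0.15 after the correction. The next tested genes outward had other orders or smaller ratios. The log2 ratio of GelMA-PSS against TCP was 0.20 for Mdfic and 0.26 for Capza2, and Capza2 was lower on GelMA than on TCP. Against GelMA the log2 ratio of Capza2 was 0.38, beside 0.40 for Cav1, or 0.11 and 0.17 corrected. Tes, Cav2, Cav1 and Met were all higher on GelMA than on TCP, by log2 ratios of 0.73, 0.66, 0.48 and 0.56. Mdfic was also higher, by 0.11, and the median over all genes tested was -0.01. Whether genes of this stretch change together was not tested.

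The genes most like each member were taken by the distance between their pairs of uncorrected log2 ratios (GelMA-PSS against GelMA, and GelMA against TCP). The search covered the 9666 genes that reached 10 CPM in any library. With 3 libraries such a likeness rests on 2 numbers per gene, and it includes the trend with transcript length given above. Nearest to Cav3 were Hfe2, Dhcr7 and Adora1, at distances of 0.02 to 0.04, and nearest to Murc were Capn12, Rufy1 and the myoglobin gene Mb, at 0.01 to 0.02. Murc was the 57th nearest gene to Cav3 and Cav3 the 133rd nearest to Murc. Cav1 was nearest to Ckap2l, Ncaph and Mlkl, and Cav2 to Fstl1, Nt5e and Cd34. Cav1 was the 50th nearest gene to Cav2 and Cav2 the 138th nearest to Cav1. Nearest to Prkcdbp were the ribosomal protein gene Rps13, Fau and Dut, to Sdpr were Gm12669, Naa20 and Naa38, and to Ptrf were Pcid2, Gnl1 and Ankmy2, at distances below 0.03 in each case.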
